A study of Mus musculus with 8 samples.

Results

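The 8 genes described here encode the enzymes of the pentose phosphate pathway: G6pdx, H6pd, Pgls and Pgd of its oxidative branch, and Rpia, Rpe, Tkt and Taldo1 of its non-oxidative branch. They were taken by gene name from a table of 24547 mouse genes with read counts and FPKM values (counts scaled by gene length and library total), and each name matched 1 row. The table comes from RNA sequencing of whole liver of ICR mice, an outbred strain. The treated group (4 libraries) had received Psoraleae Fructus (fruit of Psoralea corylifolia) as a decoction at high dose, given intragastrically over 30 days, and the control group (4 libraries) saline. The labels give no age, sex, dose by mass, hour of collection or genotype. They also do not tie a library to an animal, and each p-value therefore rests on library-to-library spread. The question is how transcripts of this pathway in the liver differ after the treatment, in a series on liver damage by this preparation.

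The pathway is a side route of glucose breakdown in the cytosol that starts from glucose 6-phosphate. Its oxidative branch makes NADPH, the reducing agent of fatty acid and sterol synthesis and of glutathione recycling. Its non-oxidative branch interconverts sugar phosphates, supplies ribose 5-phosphate for nucleotides and returns surplus carbon to glycolysis. H6pd stands apart from the other enzymes, since it lies in the endoplasmic reticulum and makes NADPH there. In liver the pathway is known to respond to carbohydrate feeding and to oxidative stress.

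Library totals ran from 15864399 to 19153845 counts in controls and from 16398729 to 20159132 in treated libraries. Hepatocyte genes were abundant in each library, the summed level of 7 markers such as Alb and Apob running from 110600 to 160400 CPM (counts scaled to library totals adjusted by TMM factors) in controls and from 131300 to 151600 in treated libraries. Alb stood at 116400 ± 21780 against 117600 ± 8534 CPM and Apob at 7540 ± 1117 against 6581 ± 1111 (SD, n = 4). The sum is mostly Alb, and both were lowest in control 2 (86670 CPM of Alb). Serpina1a, of the same list, was lower in each treated library than in each control (1590 ± 318 against 950 ± 238 CPM, edgeR adjusted p = 0.0653). The groups overlapped for the other hepatocyte markers, and none of the 7 was called by edgeR. Control 2 had the highest sums of macrophage, MHC class II and T and NK cell markers, and control 4 the highest levels of Fasn, Me1 and Thrsp, so values without them are given where they bear on a result. In whole tissue, fewer cells of a type and less RNA per cell cannot be told apart.

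Of the 8 genes, edgeR called 1 lower and 1 higher in treated livers, both in the oxidative branch. G6pdx, the entry enzyme of the pathway, stood at 0.454 times its control level, and Pgls, the next enzyme, at 1.45 times. Over 19 alternative fits the call of G6pdx held under 15 and that of Pgls under 9. After a length and GC correction 1 of the 8 genes was called, G6pdx. Pgls was not called there (log2 0.21, edgeR adjusted p = 0.350). All 8 passed the filter on low counts. With edgeR's quasi-likelihood test and a Benjamini-Hochberg adjusted p under 0.05 over all genes, 9.21% of the 12861 tested genes were called, 5.46% higher and 3.75% lower. The 2 calls among the 8 genes, 1 in each direction, are read only against these shares, and nothing particular to the pathway is drawn from them. The median log2 fold change of the 8 genes was -0.22, against -0.037 over all tested genes. None of the 4 genes of the non-oxidative branch was called by edgeR. None of them had an unadjusted p under 0.05, and DESeq2, limma-voom and limma on log2(FPKM + 1) called 0 of them. Over all 12861 tested genes, 3777 had an unadjusted p under 0.05 by edgeR. Of all genes, DESeq2 called 2159 of 13527, limma-voom 2126 of 12861 and limma on log2(FPKM + 1) 854 of 11403. The groups did not overlap for 3 of the 8 genes, G6pdx, Pgls and Rpe, while 18.9% of all tested genes had no overlap, 10.2% with treated libraries higher and 8.70% with them lower.

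**Figure D1:**
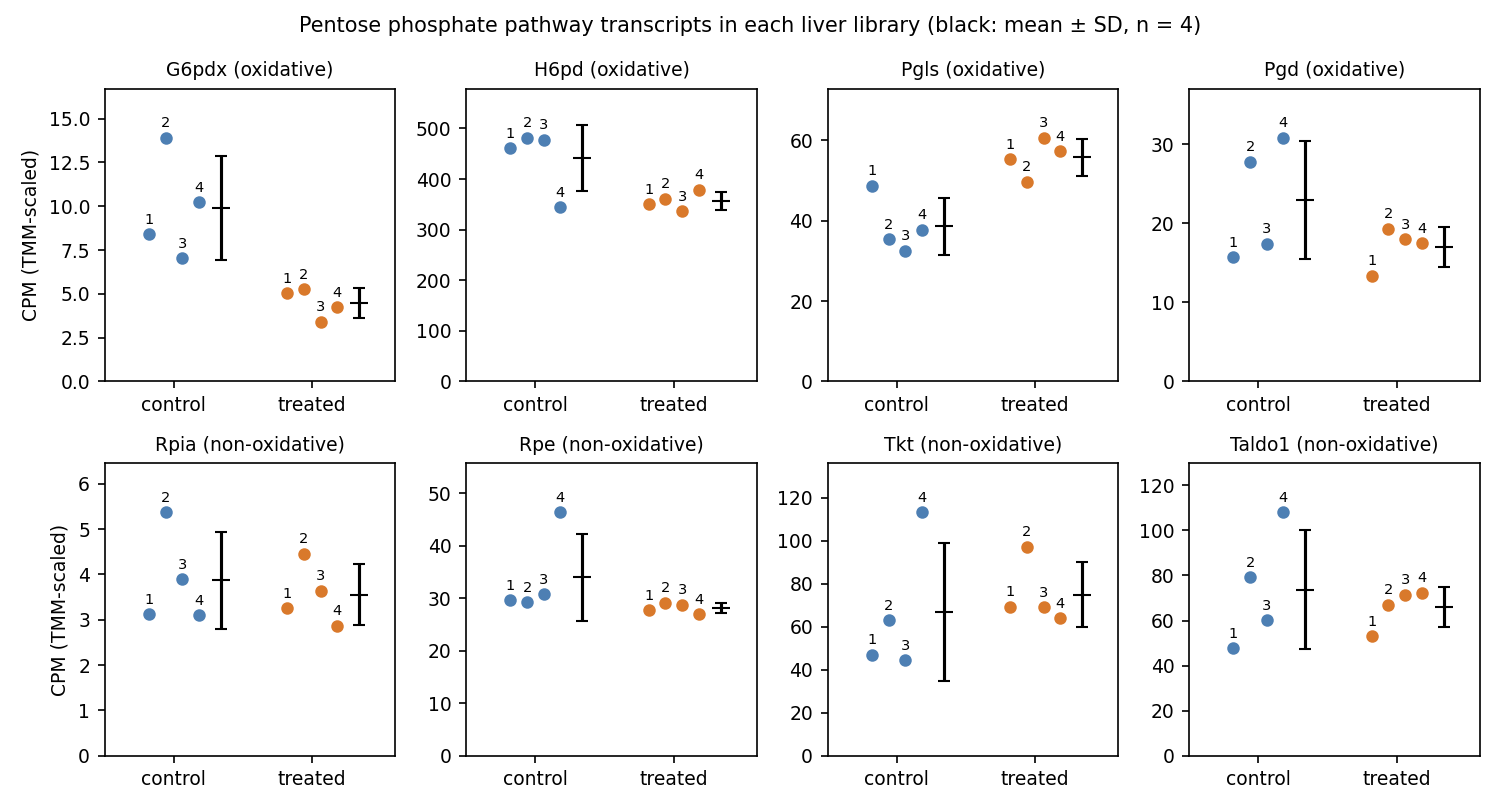
CPM of each of the 8 genes in every library, with the replicate number above each point, and the mean ± SD of each group of 4 in black; each vertical axis starts at 0. All 4 treated libraries lie below the controls for G6pdx and above them for Pgls, and control 4 is the highest point for Pgd, Rpe, Tkt and Taldo1.

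G6pdx encodes glucose-6-phosphate dehydrogenase, which commits glucose 6-phosphate to the pathway and makes its first NADPH (GRCm38 chromosome X, 74409483 to 74429194, minus strand). Its level was 8.41, 13.9, 7.04 and 10.2 CPM in controls 1 to 4 and 5.05, 5.28, 3.40 and 4.24 CPM in treated libraries 1 to 4. Each treated library lay below each control, and control 2 was the highest. The fall was 1.14 on the log2 scale, from 9.90 ± 2.98 to 4.49 ± 0.85 CPM (SE 0.24, edgeR adjusted p = 0.0229). These levels rest on 112 to 269 reads per control library and 56 to 101 per treated library. The call was lost with 1 treated library fewer for treated libraries 1, 3 and 4, at log2 changes of -1.18, -1.03 and -1.11 (edgeR adjusted p = 0.0530, 0.0801 and 0.0642). Without controls 2 and 4 the log2 change was -0.77 (edgeR adjusted p = 0.0722). These were the highest controls for G6pdx, so leaving them out makes the fall smaller by itself. The exons of Ikbkg on the opposite strand overlap those of G6pdx over 418 bases, and Ikbkg stood at 79.9 against 64.0 CPM (log2 change -0.32, SE 0.20, edgeR adjusted p = 0.324). The library kit does not mark strand, so reads from that overlap cannot be assigned to either gene.

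The 250 bases before the RefSeq start of G6pdx (GRCm38.p6, chrX:74428881-74429130, minus strand) are shown because this gene carries the fall. RefSeq starts differ from the GENCODE gene bounds given here. Of the windows printed here, those of G6pdx and Tkt and the end of that of Pgls lie inside those bounds. Capitals in this and the following sequences mark matches, on either strand, to 4 motifs. The first is TGANNNNGC, the core of the antioxidant response element bound by NRF2. The second is CACGTG, 1 form of the E-box, whose other forms were not searched. The third is GGGCGG, the GC box, and the fourth is CCAAT. Of all 32851 windows of this length in the RefSeq table, 35.2% hold the first motif, 6.02% the second, 32.7% the third and 33.8% the fourth. A match is a description of letters and not a measured site. The window of G6pdx holds 1 match to TGANNNNGC, read as GCTCAGTCA, and 1 to GGGCGG.
G6pdx: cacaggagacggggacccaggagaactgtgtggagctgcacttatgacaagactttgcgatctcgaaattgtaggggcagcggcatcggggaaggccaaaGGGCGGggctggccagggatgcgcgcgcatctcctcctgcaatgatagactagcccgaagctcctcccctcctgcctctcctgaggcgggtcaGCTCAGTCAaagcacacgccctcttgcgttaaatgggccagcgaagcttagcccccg

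Markers of other cells are given here beside G6pdx. Their edgeR calls are read only against the 3.75% of all 12861 tested genes called lower, 482 genes. With 1 library left out, from 36 to 1106 of all genes were called lower, and 141 after the length and GC correction. The macrophage, MHC class II and T and NK cell sums were highest in control 2, as G6pdx was. The endothelial sum was highest in control 1 and the stellate sum in control 3. The summed level of 15 macrophage markers was 1166, 1649, 1115 and 674 CPM in controls 1 to 4 and 765, 894, 458 and 675 CPM in treated libraries 1 to 4. Control 2 was the highest and treated library 3 the lowest for both G6pdx and this sum, while control 4 had a macrophage sum within the treated range and a G6pdx level above it. Of 14 tested macrophage markers 3 fell and none rose, namely Adgre1, Timd4 and Ccr2, by edgeR. Leaving out 1 library gave from 0 calls (without control 2 or any 1 treated library) to 9 (without control 4), and leaving out controls 2 and 4 gave 3, Adgre1 and Timd4 among them but not Ccr2. Without control 2 G6pdx fell by 0.92 on the log2 scale (edgeR adjusted p = 0.0481). No macrophage marker was at 0 in every library. Of the other lists, 5 of 7 MHC class II genes, 2 of 6 T and NK cell, 2 of 8 endothelial and 1 of 8 stellate markers fell by edgeR, and none rose. With 1 library left out, the MHC class II calls ran from 0 (without control 3 or any 1 treated library) to 6 (without control 1 or 4), the T and NK cell calls from 0 (without control 2 or 3 or treated library 1, 2 or 3) to 5 (without control 4), and the endothelial calls from 0 (without control 2 or 3 or treated library 1, 3 or 4) to 3 (without control 4). The length and GC correction left no macrophage or endothelial call, 3 MHC class II calls, 1 T and NK cell call and the 1 stellate call. The stellate calls were 2 without control 1 and 1 without any other library. The MHC class II sum ran from 272 to 1990 CPM in controls, highest in control 2, and from 68.5 to 97.5 CPM in treated libraries. The T and NK cell sum ran from 7.87 to 36.6 against 6.10 to 7.04 CPM, the endothelial sum from 373 to 499 against 254 to 374 CPM, and the stellate sum from 378 to 468 against 295 to 389 CPM. Neutrophil, B cell, erythroid and hepatocyte lists had no gene called by edgeR. Of each list 1 gene had an unadjusted p under 0.05, as did 3777 of all 12861 tested genes. DESeq2 and limma-voom each called 1 erythroid and 1 hepatocyte gene and no neutrophil or B cell gene. Over all genes DESeq2 called 2159 of 13527 and limma-voom 2126 of 12861. The part of these cells in the fall of G6pdx was not tested.

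**Figure D2:**
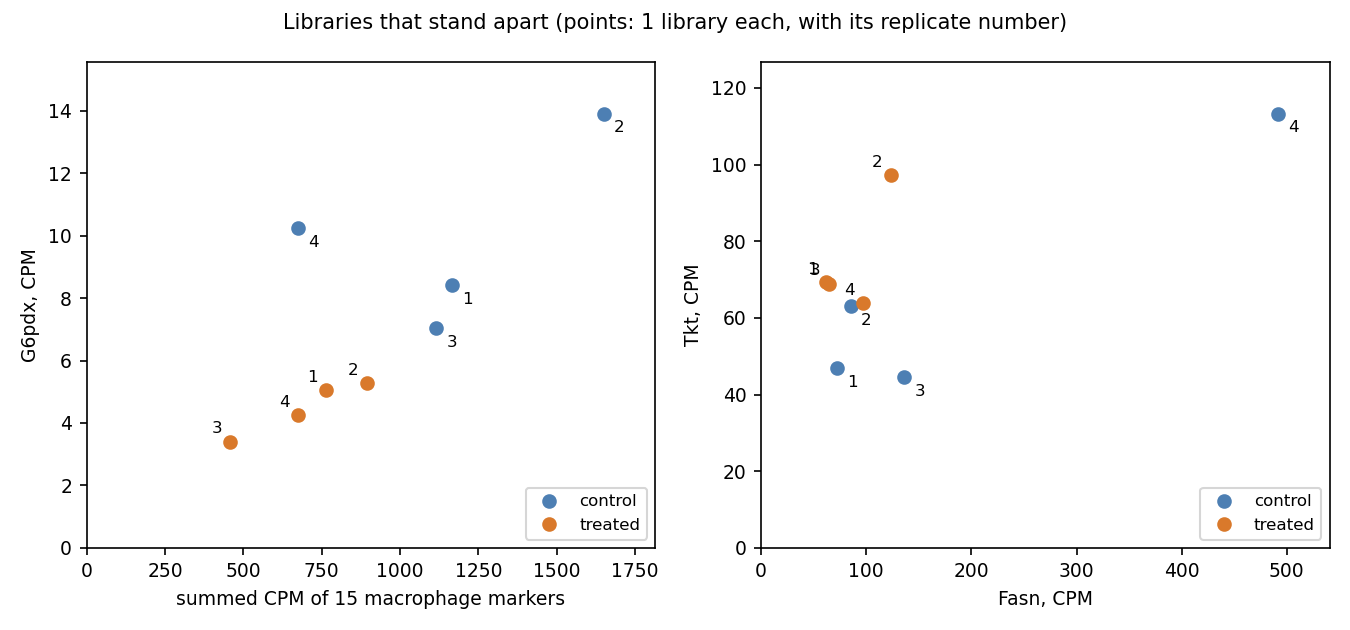
Left, G6pdx against the summed CPM of 15 macrophage markers; right, Tkt against Fasn, both in CPM, with 1 point per library and its replicate number. Control 2 is highest on both axes of the left panel (13.9 CPM of G6pdx and 1649 CPM of markers), and control 4 is highest on both axes of the right panel (113 CPM of Tkt and 492 CPM of Fasn).

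Pgls encodes 6-phosphogluconolactonase, which opens the lactone that G6pdx makes (chromosome 8, 71592176 to 71601092, plus strand). Its level was 48.7, 35.4, 32.5 and 37.8 CPM in controls 1 to 4 and 55.4, 49.7, 60.7 and 57.3 CPM in treated libraries 1 to 4. Each treated library lay above each control, though treated library 2 exceeded control 1 only narrowly. The rise was 0.53 on the log2 scale, from 38.6 ± 7.10 to 55.8 ± 4.58 CPM (SE 0.14, edgeR adjusted p = 0.0438). The transcripts of Pgls have 62.8% GC, above 99.2% of tested genes, and fold changes ran with GC content over all genes, the median log2 change being -0.26 in the lowest of 10 GC bins and 0.26 in the highest. Once length and GC trends were removed, the log2 change of Pgls was 0.21 (SE 0.13, edgeR adjusted p = 0.350), while that of G6pdx, with 50.6% GC, was -1.12 (adjusted p = 0.0340). The call of Pgls was also lost when control 2 or 3 or any 1 of the 4 treated libraries was left out, at log2 changes of 0.46 to 0.60 (adjusted p from 0.0616 to 0.126), and without controls 2 and 4 (log2 0.46, adjusted p = 0.128). Exons of Fam129c lie over 776 bases of Pgls exons on the same strand, and that gene stood at 0.66 against 0.77 CPM. The window before the RefSeq start of Pgls (chr8:71591934-71592183, plus strand) is shown as that of the gene called higher. It holds 1 match to GGGCGG and none to the other motifs.
Pgls: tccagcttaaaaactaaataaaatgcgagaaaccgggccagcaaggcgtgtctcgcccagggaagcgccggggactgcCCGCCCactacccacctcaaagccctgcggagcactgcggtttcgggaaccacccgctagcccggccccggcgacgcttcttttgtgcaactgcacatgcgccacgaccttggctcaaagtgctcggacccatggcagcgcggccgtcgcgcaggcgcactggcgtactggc

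Pgd encodes 6-phosphogluconate dehydrogenase, the second NADPH-making step, which releases carbon dioxide and leaves ribulose 5-phosphate (chromosome 4, 149149991 to 149166771, minus strand). It stood at 15.7, 27.8, 17.4 and 30.8 CPM in controls 1 to 4 and at 13.4, 19.3, 17.97 and 17.4 CPM in treated libraries 1 to 4. Controls 2 and 4 lay above all treated libraries and controls 1 and 3 within their range. The log2 change was -0.43 (22.9 ± 7.49 against 17.0 ± 2.57 CPM, SE 0.23, edgeR adjusted p = 0.238), a difference within the spread between libraries. Without controls 2 and 4 it was 0.05 (SE 0.18, adjusted p = 0.900), smaller than its SE. These were the highest controls for Pgd, so leaving them out raises the change by itself, and nothing is drawn from it.

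H6pd encodes the dehydrogenase of the endoplasmic reticulum, which carries out the steps of both G6pdx and Pgls there and supplies NADPH to Hsd11b1, the reductase that reactivates glucocorticoids (chromosome 4, 149979475 to 150009023, minus strand, 813 kb from Pgd). It stood at 461, 482, 477 and 345 CPM in controls 1 to 4 and at 350, 361, 336 and 379 CPM in treated libraries 1 to 4. Controls 1 to 3 lay above all treated libraries, and control 4 fell inside the treated range. The log2 change was -0.31 (441 ± 64.9 against 357 ± 18.1 CPM, SE 0.15, edgeR adjusted p = 0.192). Without control 4 it was -0.41 (SE 0.13, adjusted p = 0.0528), just outside the threshold. Hsd11b1 stood at 923 ± 103 against 1141 ± 196 CPM (adjusted p = 0.270).

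In the non-oxidative branch, Rpia and Rpe convert ribulose 5-phosphate to ribose 5-phosphate and to xylulose 5-phosphate. Rpia (chromosome 6, 70765720 to 70792232, minus strand) stood at 3.13, 5.38, 3.90 and 3.10 CPM in controls 1 to 4 and at 3.25, 4.46, 3.64 and 2.87 CPM in treated libraries 1 to 4. The groups overlapped through most of their range, at 48 to 104 reads per library (log2 -0.13, SE 0.25, edgeR adjusted p = 0.779). Rpe (chromosome 1, 66700831 to 66719805, plus strand) stood at 29.6, 29.2, 30.7 and 46.4 CPM in controls 1 to 4 and at 27.7, 29.1, 28.7 and 26.9 CPM in treated libraries 1 to 4. Each treated library lay below each control, but 3 of the controls were within 2 CPM of the highest treated library and control 4 made most of the difference. The log2 change of Rpe was -0.27 (33.97 ± 8.31 against 28.1 ± 1.003 CPM, SE 0.16, edgeR adjusted p = 0.274), and -0.08 (adjusted p = 0.592) without control 4. Kansl1l on the opposite strand shares 558 exonic bases with Rpe, and stood at 11.5 against 10.1 CPM.

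Tkt and Taldo1 encode transketolase, a thiamine-dependent enzyme, and transaldolase, which move short carbon units between sugar phosphates and link the pathway to glycolysis. Tkt (chromosome 14, 30548359 to 30574720, plus strand) stood at 46.9, 63.1, 44.5 and 113 CPM in controls 1 to 4 and at 69.3, 97.2, 69.0 and 63.9 CPM in treated libraries 1 to 4. Controls 1 to 3 lay below all treated libraries and control 4 above them all. The log2 change was 0.16 (66.9 ± 32.0 against 74.8 ± 15.1 CPM, SE 0.30, edgeR adjusted p = 0.756). Without control 4 it was 0.54 (SE 0.18, adjusted p = 0.0663), and without controls 2 and 4 it was 0.72 (SE 0.18, adjusted p = 0.0438), the only call among the 8 genes in that fit. Controls 2 and 4 were singled out by expression levels in these same data. Leaving out control 4, the highest library for Tkt, raises the change by itself, and only 2 controls remain. Nothing is drawn from that call. Taldo1 (chromosome 7, 141392199 to 141402968, plus strand) stood at 47.6, 79.3, 60.0 and 108 CPM in controls 1 to 4 and at 53.0, 67.0, 71.5 and 72.4 CPM in treated libraries 1 to 4. The treated libraries lay within the control range (73.8 ± 26.4 against 66.0 ± 8.99 CPM, log2 -0.16, SE 0.23, edgeR adjusted p = 0.680). Without control 4 the log2 change of Taldo1 was 0.08 (adjusted p = 0.779), and without controls 2 and 4 it was 0.30 (adjusted p = 0.287). These were the highest controls for Taldo1, so leaving them out raises the change by itself.

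The windows before the RefSeq starts of Tkt (chr14:30548881-30549130, plus strand) and Taldo1 (chr7:141391910-141392159, plus strand) were chosen after the matches were seen. With G6pdx these are the 3 of the 8 genes whose window holds TGANNNNGC, read as TGATTCGGC in Tkt and TGAGCGCGC in Taldo1. Tkt holds 3 matches to GGGCGG, of which 2 share a base, and Taldo1 holds 1, with 1 to CCAAT. A window of 7 of the 8 genes held GGGCGG, that of H6pd being the exception, and none held CACGTG. The window of H6pd (chr4:150003237-150003486, minus strand) lies inside its gene bounds, so the bases before the GENCODE start of H6pd were not read. Pgd has 2 windows, and the second holds no GGGCGG. The shares of all windows given above count windows and not genes.
Tkt: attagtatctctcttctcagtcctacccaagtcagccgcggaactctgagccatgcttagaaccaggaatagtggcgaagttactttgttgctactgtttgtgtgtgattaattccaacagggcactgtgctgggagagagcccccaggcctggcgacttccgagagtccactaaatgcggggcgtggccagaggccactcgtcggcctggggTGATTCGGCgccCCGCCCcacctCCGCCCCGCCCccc
Taldo1: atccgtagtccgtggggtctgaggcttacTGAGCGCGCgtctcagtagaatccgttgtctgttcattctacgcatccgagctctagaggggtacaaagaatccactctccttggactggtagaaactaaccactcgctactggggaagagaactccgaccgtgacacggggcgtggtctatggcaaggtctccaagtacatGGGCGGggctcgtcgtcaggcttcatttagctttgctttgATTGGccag

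**Figure D3:**
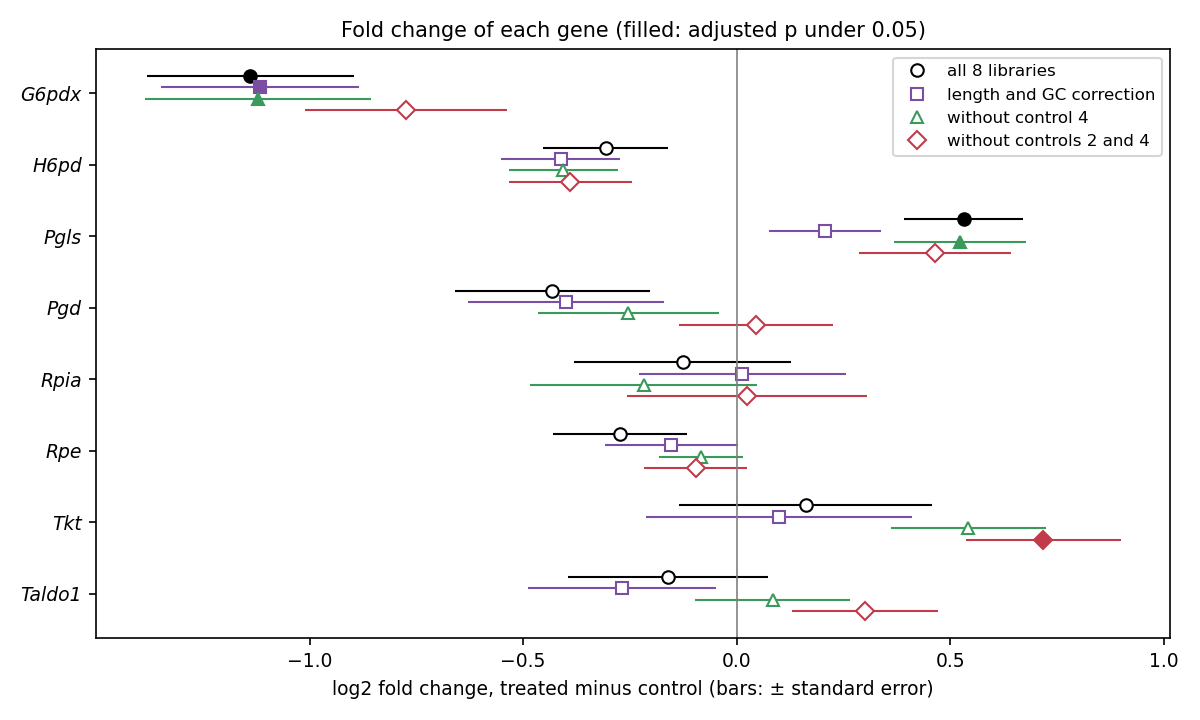
Log2 fold change, treated minus control, of each gene with its standard error, for all 8 libraries, after the length and GC correction, without control 4 and without controls 2 and 4; filled symbols have an edgeR adjusted p under 0.05. G6pdx stays between -1.14 and -0.77, Pgls drops to 0.21 after the correction, and Tkt moves from 0.16 to 0.72 without controls 2 and 4.

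Control 4 was the highest of the 8 libraries for 4 of the 8 genes and control 2 for 3, against 15.8% and 19.3% of all tested genes. The exception was Pgls, highest in treated library 3. Fasn, Thrsp and Me1 were also highest in control 4. Fasn, fatty acid synthase, which uses NADPH, stood at 72.2, 85.1, 136 and 492 CPM in controls 1 to 4 and at 61.4 to 123 CPM in treated libraries. Thrsp, a regulator of lipogenesis, stood at 685 CPM in control 4, at 6.15 to 27.4 CPM in the other controls and at 41.9 to 179 CPM in treated libraries, where the highest was library 2, also the highest of the treated libraries for Tkt. The malic enzyme Me1 stood at 415 CPM in control 4, at 117 to 142 CPM in the other controls and at 74.4 to 91.3 CPM in treated libraries. Fasn and Me1 were picked after their values were seen. Their part in the levels of the pathway genes in control 4 was not tested. All 8 genes varied more among controls than among treated libraries, by the coefficient of variation of CPM, as did 67.8% of all tested genes. For Tkt the coefficient was 47.8% in controls and 20.2% in treated libraries, and for Rpe 24.5% and 3.57%.

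Per length, H6pd was the most abundant transcript of the pathway in every library. In controls the FPKM levels were ordered H6pd (85.8 ± 15.3), Taldo1 (34.7 ± 12.8), Rpe (11.1 ± 2.57), Pgls (10.3 ± 1.55), Tkt (9.24 ± 4.36), Pgd (3.64 ± 1.30), G6pdx (3.30 ± 1.21) and Rpia (0.74 ± 0.26). Rpe, Pgls and Tkt did not differ beyond their spread, nor did Pgd and G6pdx. In treated libraries Pgls (14.5 ± 0.58 FPKM) stood above Rpe (8.89 ± 0.58) in each library, and above Tkt (10.1 ± 2.47) in 3 of 4, with 13.72 against 13.74 FPKM in treated library 2. Pgd (2.60 ± 0.43) stood above G6pdx (1.45 ± 0.33) in each treated library. H6pd (67.1 ± 5.19), Taldo1 (29.9 ± 3.85) and Rpia (0.66 ± 0.15) kept their places in that order. These levels follow the library totals and not the TMM factors, and they carry no correction for GC content. The length of each gene is the union of its annotated exons, 7355 bases for Tkt and 2171 for Taldo1. In controls Tkt and Taldo1 stood at 66.9 and 73.8 CPM, so their distance per length rests largely on that length. The order between genes and the shares below depend on the length used.

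By FPKM, the cytosolic entry enzyme was thus a small part of the pathway's transcript. The share of G6pdx in the summed FPKM of the 8 genes was 2.04% ± 0.50 in controls and 1.07% ± 0.22 in treated libraries, and the share of Pgls was 6.62% ± 1.56 and 10.8% ± 1.08. The share of H6pd was 60.9%, 55.5%, 61.2% and 40.0% in controls 1 to 4 and 47.1% to 52.0% in treated libraries. The 4 genes of the non-oxidative branch held 26.6%, 33.5%, 29.7% and 49.0% in controls 1 to 4 and 33.7% to 38.5% in treated libraries. Control 4 is thus the library in which this branch was largest, and the treated libraries lie between it and the other controls. The shares of 1 library sum to 100, so they are not independent, and no test was made on them. They carry no GC correction, while after the length and GC correction the log2 change of Pgls was 0.21 (edgeR adjusted p = 0.350).

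**Figure D4:**
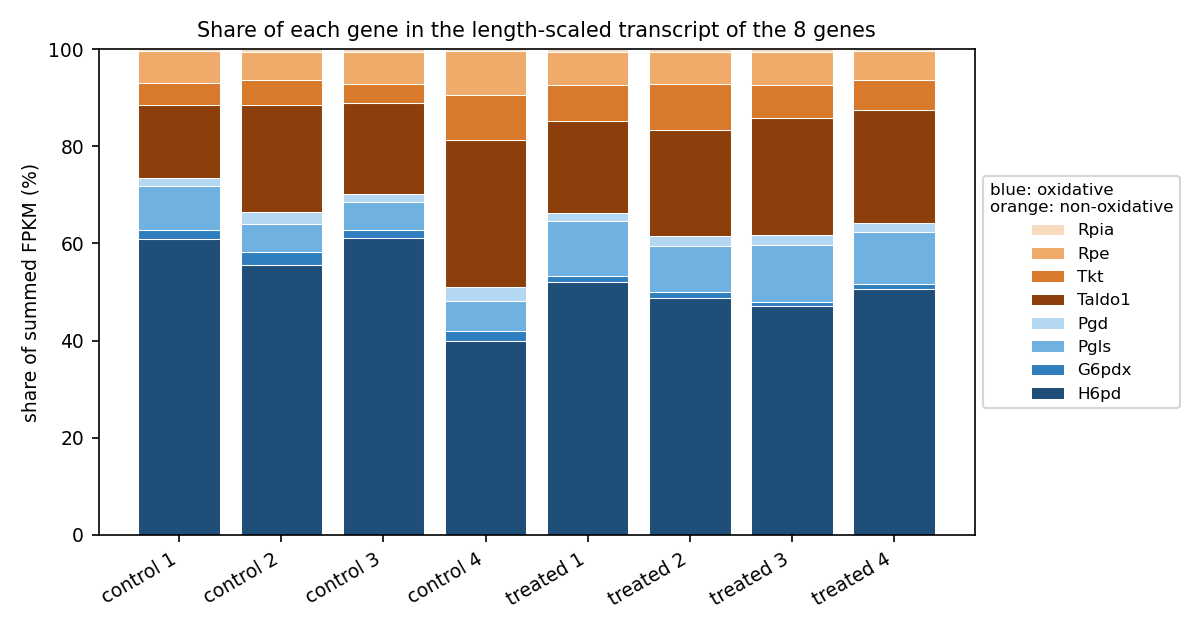
Share of each gene in the summed FPKM of the 8 genes, in percent, for each library, with the oxidative branch in blue and the non-oxidative branch in orange. H6pd is the largest part in each bar, from 40.0% in control 4 to 61.2% in control 3, and G6pdx is between 0.81% and 2.73%.

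The calls in each of the following 5 lists are edgeR's and are read only against the 5.46% of all tested genes called higher and the 3.75% called lower. Counts by other fits are read against their own totals. DESeq2 called 1141 higher and 1018 lower of 13527 genes, and limma-voom 1194 and 932 of 12861. Without control 4 edgeR called 1224 and 1106 of 13091, and without controls 2 and 4 616 and 459 of 13329. An unadjusted p under 0.05 by edgeR was found for 3777 of all 12861 tested genes. Of 9 tested genes of other NADPH sources 1 rose and 1 fell, with a median log2 change of -0.11. Idh2, the mitochondrial NADP-dependent isocitrate dehydrogenase, stood at 94.4, 86.7, 93.2 and 90.2 CPM in controls 1 to 4 and at 162, 134, 163 and 136 CPM in treated libraries 1 to 4. It rose in every treated library over every control (log2 0.70, SE 0.11, edgeR adjusted p = 0.00942). The call held under 18 of the 19 alternatives. Among these were each of the 8 fits with 1 library left out and the length and GC correction (log2 0.53, edgeR adjusted p = 0.0476). Me2, a mitochondrial malic enzyme that can use NAD or NADP, fell from 5.69 ± 2.35 to 2.66 ± 0.53 CPM (log2 change -1.10, adjusted p = 0.0497). This call was lost in 7 of the 8 fits with 1 library left out, all but that without control 4 (log2 -0.77 to -1.20, adjusted p from 0.0504 to 0.140), and after the correction (log2 -1.01, adjusted p = 0.0791). Without control 2, the highest at 9.10 CPM, the log2 change of Me2 was -0.77. Idh1, the cytosolic form of isocitrate dehydrogenase, was not called (332 ± 165 against 294 ± 25.6 CPM).

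Among 14 genes of NADPH use 1 rose and none fell, with a median log2 change of 0.22, while DESeq2 called 3 higher and limma-voom 4. Txnrd2, the mitochondrial thioredoxin reductase, rose from 22.2 ± 4.14 to 34.9 ± 5.30 CPM (log2 change 0.65, SE 0.16, edgeR adjusted p = 0.0360). The call was lost in 6 of the 8 fits with 1 library left out, all but those without control 4 and treated library 1 (log2 0.56 to 0.68, adjusted p from 0.0608 to 0.114), and after the length and GC correction (log2 0.60, adjusted p = 0.0768). Gsr, glutathione reductase, which spends NADPH to keep glutathione reduced, stood at 91.5 ± 25.0 against 75.0 ± 7.28 CPM (adjusted p = 0.328).

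Of 24 genes of glucose 6-phosphate supply and glycolysis 2 rose and none fell by edgeR, with 11 at an unadjusted p under 0.05 and a median log2 change of -0.009. DESeq2 called 2 higher and 3 lower, limma-voom 3 higher and 1 lower, and edgeR 4 higher and 2 lower without control 4 and 2 higher and 1 lower without controls 2 and 4. Fbp1, fructose bisphosphatase of gluconeogenesis, rose by 1.01 on the log2 scale (SE 0.19, edgeR adjusted p = 0.0142), a call lost without treated library 3 (log2 0.93, adjusted p = 0.0577). Pfkl, the liver phosphofructokinase of glycolysis, rose from 24.4 ± 3.72 to 38.5 ± 4.84 CPM (log2 change 0.66, SE 0.14, adjusted p = 0.0245). This call was lost without control 3 and without treated library 1, 2 or 3 (log2 0.56 to 0.70, adjusted p from 0.0584 to 0.0613), and after the correction (log2 0.56, adjusted p = 0.0630). These enzymes catalyse opposite steps between fructose 6-phosphate and fructose bisphosphate. G6pc, the glucose 6-phosphatase that releases glucose, stood at 574, 498, 412 and 103 CPM in controls 1 to 4 and at 92.7, 158, 148 and 153 CPM in treated libraries 1 to 4. Controls 1 to 3 lay above all treated libraries and control 4 within their range (log2 change -1.52, SE 0.46, adjusted p = 0.0741).

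Of 18 tested genes of ribose phosphate use and related sugar phosphate enzymes 2 rose and 1 fell, with a median log2 change of 0.17. The list joins nucleotide synthesis genes with Rbks, Shpk, Dera, Xylb and Dcxr, which act on other sugars or sugar phosphates and were not called. Dhodh, an enzyme of pyrimidine synthesis in the mitochondrial membrane, rose from 5.43 ± 0.34 to 9.35 ± 1.13 CPM (log2 change 0.78, SE 0.16, edgeR adjusted p = 0.0183). Prpsap1, a protein associated with phosphoribosyl pyrophosphate synthetase, rose from 33.1 ± 3.89 to 51.2 ± 5.67 CPM (log2 change 0.63, SE 0.13, adjusted p = 0.0197). Both calls held after the length and GC correction (adjusted p = 0.0425 for each). Both were lost without control 3 and without treated library 3 (adjusted p from 0.0511 to 0.0713), and that of Dhodh also without treated library 1 (adjusted p = 0.0508). Cad, which starts pyrimidine synthesis, fell from 13.8 ± 2.62 to 8.91 ± 0.68 CPM (log2 change -0.63, SE 0.17, adjusted p = 0.0429), a call lost in 7 of the 8 fits with 1 library left out, all but that without control 3 (log2 -0.55 to -0.67, adjusted p from 0.0522 to 0.109), and after the correction (log2 -0.71, adjusted p = 0.0509). Without controls 2 and 4 the log2 change of Cad was -0.38 (adjusted p = 0.192). These were the highest controls for Cad, so leaving them out makes the fall smaller by itself.

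Of 10 regulators of the pathway and of lipogenesis none was called by edgeR, with 4 at an unadjusted p under 0.05, and 1 called by DESeq2 and 2 by limma-voom. Mlxipl, the carbohydrate response factor ChREBP, stood at 85.4 ± 34.7 against 77.7 ± 25.0 CPM and Thrsp at 185 ± 334 against 85.6 ± 63.3 CPM. Nfe2l2, which encodes the oxidative stress factor NRF2, stood at 69.2 ± 7.69 against 66.6 ± 4.29 CPM, a log2 change of -0.06 with an SE of 0.11.

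**Figure D5:**
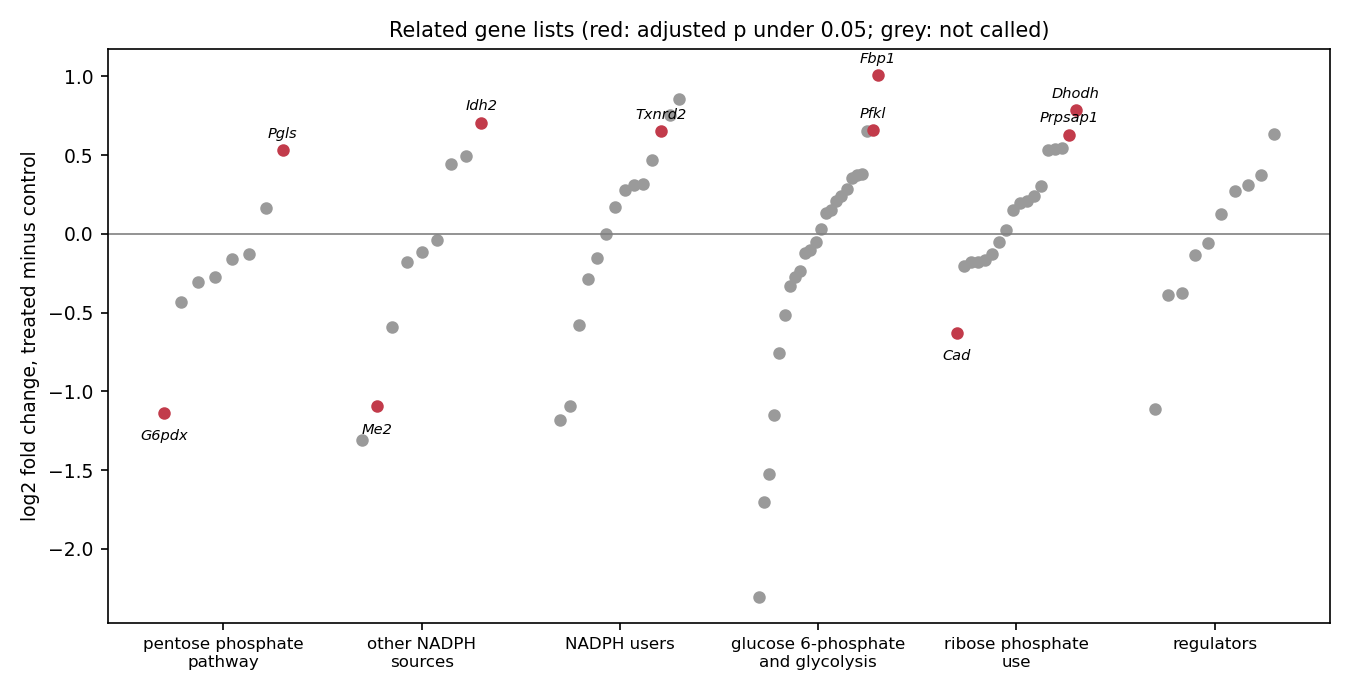
Log2 fold change, treated minus control, of each tested gene of the pathway and of 5 related lists; each point is 1 gene, sorted within its list, and red points with names have an edgeR adjusted p under 0.05. The named genes number 2 of 8 in the pathway, 2 of 9 other NADPH sources, 1 of 14 NADPH users, 2 of 24 genes of glucose 6-phosphate supply and glycolysis, 3 of 18 genes of ribose phosphate use and related sugar phosphate enzymes and 0 of 10 regulators.

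The genes nearest in pattern were found by the root mean square difference of log2 CPM over the 8 libraries, after each gene's own mean was subtracted. The difference between groups is part of this distance, so near genes have similar log2 fold changes by construction. Candidates were the 8983 tested genes whose mean CPM reached 5, leaving out predicted-gene symbols (Gm plus digits, or ending in Rik). Nearest to G6pdx, which itself varied by 0.63 around its mean, were Ctsc (0.22 apart), Hip1 (0.22) and Zfp738 (0.24), with log2 fold changes of -0.911, -0.998 and -0.889. Ctsc encodes cathepsin C, a lysosomal protease. Nearest to Pgls, which varied by 0.32, were Cox4i1 (0.053), Rpl37 (0.059) and Kxd1 (0.069), with log2 fold changes of 0.50, 0.50 and 0.57. Cox4i1 encodes a subunit of cytochrome oxidase and Rpl37 a ribosomal protein. Nearest to H6pd, which varied by 0.21, were Ddx24 (0.071), Ice2 (0.072) and Pxmp4 (0.073). None of these 9 genes belongs to the pathway, and these distances are a description with no test.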

How the data were processed

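Per the labels' protocols, Trizol was used for RNA extraction, followed by poly-A selection and a library kit without strand marking. The authors deposited raw read counts and FPKM values per gene. The tools HTSeq 0.13.5, HISAT2 and DESeq2 1.32.0, and the build GRCm38, are listed per the submitters' processing notes, which assign them no step. Annotation release and strand setting: not given in the sources used here. The deposited FPKM of each gene equals its count over the library total and 1 gene length, within 1% in all 22927 genes with counts. Of the identifiers, 24540 matched GENCODE on GRCm38, which gave positions and GC content. Promoter windows are RefSeq's (GRCm38.p6), all 8 genes matched.

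The count test was edgeR 4.0.16 in R 4.3.3: default filterByExpr (count of 10, total of 15), TMM factors, and the robust quasi-likelihood F test on group alone, with all 8 libraries. A gene was called at an adjusted p under 0.05. Standard errors derive from the F statistic. Fold changes are treated minus control. The steps were tested on simulated data. No pair of libraries was near-identical, the chi-square per degree of freedom being at least 32.1. Alternatives were DESeq2 size factors, library size alone, no filter, DESeq2 1.42.0, limma-voom and limma 3.58.1 on log2(FPKM + 1) and log2(FPKM + 0.1) with a mean FPKM of at least 0.5, a replicate block, per-library smooth trends on length and GC content (mgcv 1.9.3), and leaving out libraries.

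The genes and lists were chosen with earlier results of these data known. All 8 genes are named, and in each related list the called genes, up to 4 by adjusted p, or, with none called, the 2 of highest CPM. In the related lists Hsd11b1, Gsr, Idh1, G6pc, Nfe2l2, Fasn and Me1 were added after their values were seen, as was Serpina1a of the hepatocyte markers. The calls of marker lists are given as counts, with names for macrophages and hepatocytes only. Listed Tf, Tktl1, Tktl2 and G6pd2 were not analysed here.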

Additional observations from a re-analysis of the deposited data

Results flagged for a closer look

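In 3 of the 16 groups of 4 libraries (8 genes, control and treated), 1 library lay far from the other 3 by Dixon's test, where chance gives about 1 in 20. The groups share the same libraries and are not independent, and the share over all tested genes was not computed. H6pd in control 4 stood at 344.8 CPM, against 461.0 to 481.6 CPM in the other controls. Rpe in control 4 stood at 46.4 CPM, against 29.17 to 30.74 CPM in the other controls. Tkt in treated library 2 stood at 97.19 CPM, against 63.91 to 69.3 CPM in the other treated libraries.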

How the results depend on the processing

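G6pdx kept its direction under all 19 alternatives (log2 -1.27 to -0.77) and its call under 15 of them. With 1 library left out its log2 change ran from -1.27 to -0.92, and without controls 2 and 4 it was -0.77, with 0 genes of the pathway called lower. Pgls kept its direction under all 19 (log2 0.21 to 0.66) and its call under 9. With 1 library left out it ran from 0.46 to 0.66, without controls 2 and 4 it was 0.46, and after the length and GC correction 0.21. The number of pathway genes called higher and the number called lower each ran from 0 to 1 with 1 library left out.

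Replicate numbers are shared between the groups. The deviations of same-numbered libraries from their group means had correlations of 0.18, 0.06, -0.01 and 0.07 for numbers 1 to 4. Those of libraries with unlike numbers ran from -0.207 to 0.176. All of these are weak, and whether the numbers mark pairs cannot be decided from them. With the replicate number as a block, Pgls was no longer called (log2 0.54, edgeR adjusted p = 0.0572) and G6pdx was (log2 -1.11, adjusted p = 0.0245), so 0 pathway genes were called higher. With the block and the length and GC correction, Pgls stood at 0.21 on the log2 scale and 0 pathway genes were called higher, as with the correction alone.

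Over all genes, 702 were called higher and 482 lower. With 1 library left out these counts ran from 147 to 1224 and from 36 to 1106, lowest without treated library 3 and highest without control 4. DESeq2 called 1141 and 1018, and limma-voom 1194 and 932. The length and GC correction left 315 and 141, and with the block 283 and 140. Limma called 260 lower on log2(FPKM + 1) and 286 on log2(FPKM + 0.1), where the split of calls moved from 59.3% higher to 69.6% and 67.6%.

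Directions of genes that were not called turned in these fits: Pgd without controls 2 and 4 (log2 0.045), Rpia after the correction (0.013), with the block and the correction (0.025) and without controls 2 and 4 (0.023), and Taldo1 with limma-voom (0.027) and without controls 2 and 4 (0.300). With 1 library left out Rpia ran from -0.235 to 0.085, above 0 without control 2, and Taldo1 from -0.322 to 0.084, above 0 without control 4. For Pgd and Taldo1, controls 2 and 4 were the highest controls, so leaving them out raises the log2 change by itself. The cause of these changes was not tested. Read number alone did not order the standard errors: G6pdx and Rpia had the fewest reads, at most 269 and 104 per library, and Tkt, with 707 to 2159, had the largest standard error (0.296).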
